A study of Mus musculus with 16 samples.

Results

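The 36 genes described here belong to the integrated stress response, a programme carried by activating transcription factor 4 (ATF4). They were chosen by gene symbol as transcription factors of the pathway, feedback genes, amino acid enzymes and amino acid transporters. All 36 symbols were found among the 20295 genes of the count table, and all 36 were among the 12786 genes that passed the filter on low counts. By role they were 7 transcription factors, 8 feedback and signalling proteins, 7 enzymes of serine and one-carbon metabolism, 6 other amino acid enzymes and 8 amino acid transporters. The series sequenced RNA from mouse brown adipocytes, to ask which responses to activated lipolysis need the activation or the mitochondrial uptake of fatty acids. The cells came from a brown preadipocyte line immortalized with SV40 large T antigen, a viral protein that keeps cells dividing, and were differentiated in culture and treated on day 7. Pretreatment lasted 1 h, with triacsin C at 5 µM, etomoxir at 50 µM or neither, and SR-3420 at 10 µM was then present or absent for 3 h. SR-3420 is a ligand of ABHD5 that activates lipolysis, triacsin C inhibits acyl-CoA synthetases, and etomoxir inhibits carnitine palmitoyltransferase 1, the step that admits fatty acids to mitochondria. The 6 groups were vehicle with 2 samples (replicates 2 and 3), SR-3420 with 2 samples (replicates 1 and 3), and 3 samples each for both inhibitors, given alone or followed by SR-3420. The SR-3420 dose is the one in the sample labels, and the study's description of its experiments gives a higher one for this compound.

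In the integrated stress response, kinases that sense amino acid shortage, endoplasmic reticulum stress, mitochondrial stress or viral RNA phosphorylate the translation factor eIF2, which slows protein synthesis in general while translation of Atf4 mRNA rises. ATF4 then pairs with C/EBP-family and related factors and raises transcription of genes for amino acid synthesis, amino acid import, one-carbon metabolism and tRNA charging, together with feedback genes such as Ppp1r15a, whose product helps to remove the phosphate from eIF2. In brown fat the response is known from mitochondrial stress and includes the secreted hormones FGF21 and GDF15.

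Total counts ran from 9452861 to 25670624 per sample with a median of 13602886, and the 36 members held between 0.548% and 1.33% of them. The lowest count of any member in any sample was 18 and the highest was 29794. Levels below are CPM, a gene's count as a fixed share of the sample's trimmed-mean scaled total, and can be compared between samples for 1 gene but not between genes. Differences are log2 fold changes with a standard error (SE), and a gene was called where the quasi-likelihood F-test of edgeR gave a p under 0.05 after Benjamini-Hochberg adjustment across the 12786 genes. Replicates of a group were separate samples that the study describes as independent experiments, and no pair of them held identical values. Of the 13 brown adipocyte markers checked, the general adipocyte genes were present in every sample: Fabp4 ran from 3026 to 9223 CPM, Adipoq from 806 to 3396 CPM and Plin1 from 425 to 1968 CPM. Of the markers more particular to brown adipocytes, Cox8b ran from 34.1 to 178 CPM, Ppargc1a from 22.3 to 85.8 CPM, Prdm16 from 5.99 to 40.1 CPM and Cidea from 8.29 to 35.3 CPM. Ucp1, the uncoupling protein of brown fat, ran from 0.461 to 3.66 CPM, and Dio2 was at 0 in 12 of the 16 samples. By these markers the cells were adipocytes in which several brown adipocyte genes were detected in every sample.

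Promoter windows were available for 30 of the 36 members, from 250 bases before to 50 bases after the RefSeq transcription start on GRCm38.p6. The other 6, Eif4ebp1, Aldh1l2, Cth, Slc7a3, Slc7a5 and Slc1a5, had no window. The core of the C/EBP-ATF response element, searched on both strands as TGATGNAA (reverse complement TTNCATCA), was found in 9 of the 30 members (30%): Atf3, Jdp2, Nupr1, Trib3, Chac1, Vldlr, Asns, Pycr1 and Slc1a4. Of all 32851 promoter windows 3.97% held it, and of the 15264 genes of the count table with a window 3.77% did. Of the 9 members with these letters 6 were called higher with SR-3420 against vehicle, and of the 21 without them 12 were. The 5 sequences printed were chosen after the expression values were seen, to show the letters in members with large responses (Atf3, Chac1, Vldlr), in a member called with either inhibitor (Nupr1) and in a member with no call for SR-3420 (Asns). Each is the 250 bases before the start site, 5′ to 3′ on the strand of the gene, with the matching letters in capitals. They lie at chr1:191183334-191183583 on the minus strand for Atf3, chr2:119350992-119351241 on the plus strand for Chac1 and chr7:126625471-126625720 on the minus strand for Nupr1. The windows of Vldlr and Asns lie at chr19:27216770-27217019 on the plus strand and chr6:7693210-7693459 on the minus strand.
Atf3: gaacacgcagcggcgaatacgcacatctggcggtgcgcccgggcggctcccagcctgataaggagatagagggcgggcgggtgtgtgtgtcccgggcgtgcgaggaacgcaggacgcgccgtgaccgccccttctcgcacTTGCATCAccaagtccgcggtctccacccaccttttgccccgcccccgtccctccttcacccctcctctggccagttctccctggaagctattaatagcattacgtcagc
Chac1: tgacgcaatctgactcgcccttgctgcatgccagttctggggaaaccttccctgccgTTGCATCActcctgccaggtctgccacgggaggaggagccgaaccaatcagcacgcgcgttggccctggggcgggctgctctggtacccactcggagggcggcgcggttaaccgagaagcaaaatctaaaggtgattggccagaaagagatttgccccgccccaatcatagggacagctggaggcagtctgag
Nupr1: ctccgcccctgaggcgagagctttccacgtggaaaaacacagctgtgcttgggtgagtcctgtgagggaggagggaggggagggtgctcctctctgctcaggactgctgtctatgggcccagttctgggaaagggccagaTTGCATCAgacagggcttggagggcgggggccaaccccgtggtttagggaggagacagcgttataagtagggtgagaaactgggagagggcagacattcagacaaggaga
Vldlr: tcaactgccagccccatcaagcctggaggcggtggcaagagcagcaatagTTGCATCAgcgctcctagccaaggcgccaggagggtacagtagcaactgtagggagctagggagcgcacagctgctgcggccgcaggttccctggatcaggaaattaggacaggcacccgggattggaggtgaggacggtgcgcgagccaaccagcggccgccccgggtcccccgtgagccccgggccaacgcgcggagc
Asns: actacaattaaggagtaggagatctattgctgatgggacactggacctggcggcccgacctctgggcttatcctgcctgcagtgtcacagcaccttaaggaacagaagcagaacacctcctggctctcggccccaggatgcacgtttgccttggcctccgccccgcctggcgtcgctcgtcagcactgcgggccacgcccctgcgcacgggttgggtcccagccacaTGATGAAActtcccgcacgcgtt

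Counted from the start site, the first of these letters lay at position -110 in Atf3 and Nupr1, -193 in Chac1, -200 in Vldlr and -23 in Asns. The cyclic AMP response element core TGACGTCA was found in 1 of the 30 members, Ppp1r15a (3.33%), in 1.79% of all promoter windows and in 2.71% of the table genes with a window. CCACG, a part of the endoplasmic reticulum stress response element, was found in 20 members (66.7%), in 32.8% of all windows and in 42.2% of the table genes with a window. The AP-1 core TGANTCA was found in 2 members, Ddit3 and Slc7a1 (6.67%), in 7.81% of all windows and in 8.24% of the table genes with a window. In the members' windows no match of one of these motifs overlapped a match of another. A match describes the letters of the window and says nothing about binding of any factor.

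Transcripts of the ATF4 programme were higher with SR-3420, whether or not an inhibitor was present. Against vehicle, SR-3420 alone raised 20 of the 36 members and lowered 1, where 4.75% of all genes tested were higher and 2.79% lower. With triacsin C in both groups, SR-3420 raised 26 members and lowered 2, where 17.3% of all genes tested were higher and 19.7% lower. With etomoxir in both groups, 25 members were higher and 2 lower, where 12.5% of all genes tested were higher and 12.8% lower. The share of members called higher was therefore above the share of all genes in each of these comparisons, and the share called lower was not. The members were chosen with earlier results of these data known, so these shares are a description and not independent support. The members' median log2 fold change was 0.91, 0.87 and 0.82 in these comparisons, and the median over all genes tested was 0.00, 0.02 and 0.01. These 3 comparisons share no samples, and where 3 values for SR-3420 follow each other below, their order is no inhibitor, triacsin C, etomoxir. Over them, 19 members were called higher in all 3, 7 in 2 of the 3, 3 were called lower in at least 1, and 7 were called in none. More members were called in each of them when replicate number was a term of the model, as named below. The comparison without inhibitor rested on 2 samples against 2, and its count was 10 without vehicle replicate 3 in place of 21. It was 5 where the fit held only the 4 samples compared, which takes the spread from those samples alone: Atf3, Ddit3, Ppp1r15a, Chac1 and Slc7a1 were called, and the other 16 had an edgeR adjusted p from 0.0627 to 0.334.

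Summed over the 36 members, the level was 6305 and 5100 CPM with vehicle and 10163 and 9482 CPM with SR-3420. With triacsin C the sum was 7615, 8322 and 7463 CPM, and with triacsin C and SR-3420 it was 13593, 13546 and 12372 CPM. With etomoxir it was 6812, 6300 and 5455 CPM, and with etomoxir and SR-3420 10857, 11004 and 9294 CPM. Every sample with SR-3420 lay above every sample without it, and the samples with triacsin C and SR-3420 were the highest of the 16. No member was at 0 in any sample.

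Markers of cell types moved in the same comparisons. In the sum of the 13 brown adipocyte markers, Fabp4 was the largest term in every sample. That sum was 17030 and 14613 CPM with vehicle and 13407 and 11491 CPM with SR-3420. It was 16587, 18379 and 17259 CPM with triacsin C and 6786, 6767 and 6757 CPM with triacsin C and SR-3420. It was 16080, 14495 and 15160 CPM with etomoxir and 8767, 6166 and 9973 CPM with etomoxir and SR-3420. Within each pair of groups the sum was lower with SR-3420, with no overlap. Single markers also went the other way. Without inhibitor Ucp1 (0.84), Cidea (0.76), Elovl3 (0.73), Ppargc1a (0.20) and Lipe (0.15) had positive log2 fold changes, none called by edgeR. Ucp1 was also positive with triacsin C (0.75) and with etomoxir (1.11), again not called. Of the 12 markers tested, 2 were called lower without inhibitor (Pparg and Cox8b), 7 were called lower and 1 higher with triacsin C, and 6 were called lower with etomoxir. Over all genes tested, 2.79%, 19.7% and 12.8% were called lower and 4.75%, 17.3% and 12.5% higher. The 1 of 12 called higher with triacsin C is therefore below the share of all genes. The sum of the 8 preadipocyte or fibroblast markers, led by Col1a1 in every sample, went the other way. It was 1894 and 1638 CPM with vehicle and 4061 and 2955 CPM with SR-3420. With triacsin C it was 2629, 2313 and 2001 CPM without SR-3420 and 4599, 3860 and 3072 CPM with it. With etomoxir it was 2285, 1656 and 1107 CPM without SR-3420 and 4768, 3479 and 2347 CPM with it. In all 3 pairs of groups the samples with SR-3420 lay above the others. Called higher among these 8 were 0 without inhibitor (3 at an unadjusted p under 0.05 in edgeR, 2 by DESeq2), 3 with triacsin C and 5 with etomoxir.

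In bulk RNA, fewer cells of a type and less RNA per cell cannot be told apart, and the part of either marker list in the members' levels was not tested. Of the markers of other cell types, some were at 0 in part of the samples and others, such as Cd68 at 3.23 to 16.5 CPM and Myod1 at 1.02 to 6.83 CPM, were detected in all 16. The 5 macrophage markers summed to between 4.33 and 18.4 CPM, led by Cd68, with Adgre1 or Ptprc at 0 in several samples. Among them Cd68, a lysosomal protein, was higher with triacsin C than with vehicle (log2 fold change 1.92, SE 0.27, edgeR adjusted p = 0.000366), and lower with SR-3420 where triacsin C was present (-1.29, SE 0.22, adjusted p = 0.000651). The 4 endothelial markers summed to between 0.86 and 3.58 CPM, led by Kdr, and the 4 myoblast markers to between 1.16 and 7.08 CPM, led by Myod1, with Myf5 and Pax7 at 0 in most samples. Kdr was called higher with SR-3420 where triacsin C (0.96, SE 0.31, edgeR adjusted p = 0.0246) or etomoxir (1.28, SE 0.30, adjusted p = 0.00681) was present, and the part of these genes in the members' levels was not tested. Myod1 was not called by edgeR, at 1.32, 0.84 and 1.01 for SR-3420 without inhibitor, under triacsin C and under etomoxir (adjusted p = 0.153, 0.1 and 0.0826, unadjusted p = 0.0247, 0.0458 and 0.0254), and its part was not tested either. For triacsin C alone against vehicle Myod1 gave 1.43 (edgeR adjusted p = 0.0822, unadjusted p = 0.0124), which DESeq2 called.

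**Figure D1:**
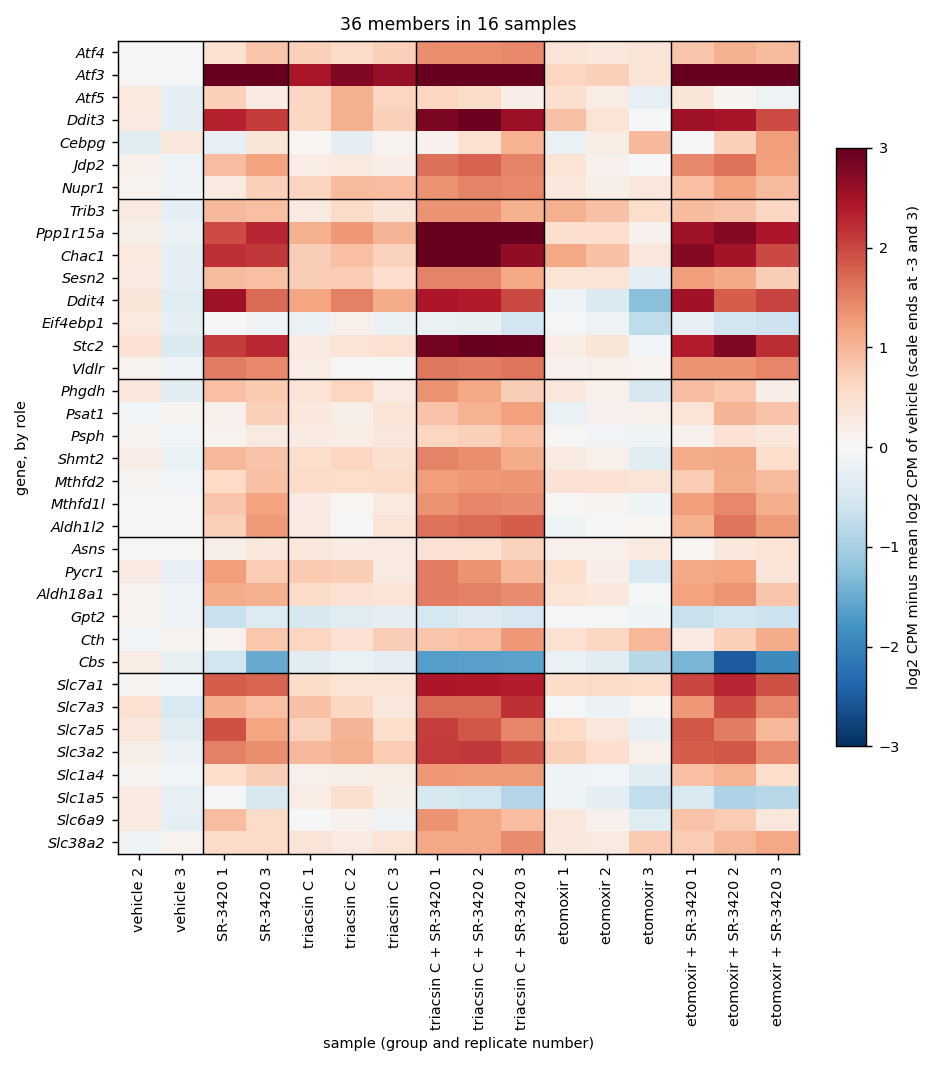
Level of each of the 36 members (lines, grouped by role) in each of the 16 samples (columns, by group and replicate), as log2 CPM minus the mean log2 CPM of the vehicle samples, with colours that end at -3 and 3. Most lines are redder in the 8 samples with SR-3420 than in the 8 without it, as for Stc2, at 1.66 to 3.11 CPM without and 9.61 to 17.9 CPM with it.

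**Figure D2:**
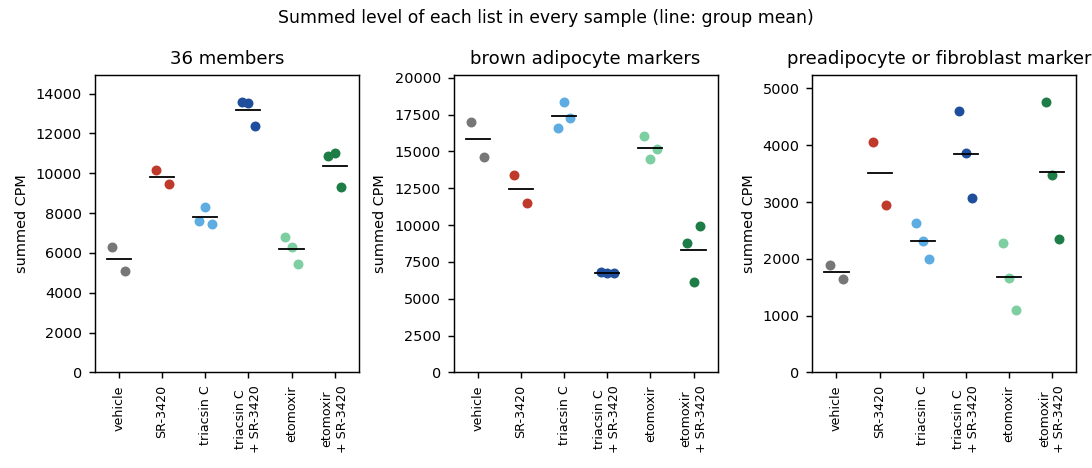
Summed CPM of the 36 members, of the 13 brown adipocyte markers and of the 8 preadipocyte or fibroblast markers in each sample (points) by group, with the group mean as a line. The members' sum ran from 5100 to 8322 CPM without SR-3420 and from 9294 to 13593 CPM with it.

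Among the 7 transcription factors, 4 were called higher with SR-3420 without inhibitor, 5 when triacsin C was present and 5 when etomoxir was. For this and the other roles, the shares of all genes called higher were 4.75%, 17.3% and 12.5%. Atf4 encodes the factor at the centre of the response and lies at chr15:80085614-80087975 on the plus strand of mm9. It stood at 457 and 459 CPM with vehicle and 625 and 811 CPM with SR-3420. With triacsin C the values were 747, 681 and 752 CPM without SR-3420 and 1203, 1210 and 1254 CPM with it. With etomoxir they were 596, 567 and 601 CPM without SR-3420 and 819, 956 and 881 CPM with it. In each pair every SR-3420 sample lay above every sample without it, and the triacsin C samples lay as high as those with SR-3420 alone. Its log2 fold change for SR-3420 was 0.65 without inhibitor (SE 0.14, edgeR adjusted p = 0.0143), 0.75 with triacsin C (SE 0.12, adjusted p = 0.000259) and 0.59 with etomoxir (SE 0.12, adjusted p = 0.00243). The call without inhibitor was lost for Atf4 when vehicle replicate 2, vehicle replicate 3 or SR-3420 replicate 3 was left out (edgeR adjusted p = 0.092, 0.093 and 0.113), and in the fit of only these 4 samples (adjusted p = 0.334). In the fit of only the etomoxir groups compared, the Atf4 call was lost as well (edgeR adjusted p = 0.0574). The files measure Atf4 mRNA and not ATF4 protein, whose translation is the regulated step.

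Atf3, a stress-induced repressor and activator of the same family (chr1:192994176-193007212, minus strand, mm9), had the largest response of the members without inhibitor and with etomoxir. It stood at 14.5 and 13.6 CPM with vehicle and 163 and 190 CPM with SR-3420. Under triacsin C it was at 77.1, 96.3 and 85.3 CPM without SR-3420 and at 357, 421 and 409 CPM with it. Under etomoxir it was at 22, 23 and 18.6 CPM without SR-3420 and at 187, 241 and 218 CPM with it. No pair of these groups overlapped except SR-3420 alone and etomoxir with SR-3420, and triacsin C alone already lay well above vehicle. The response to SR-3420 was 3.64 on the log2 scale without inhibitor (SE 0.18, edgeR adjusted p = 3.48e-07), 2.20 with triacsin C (SE 0.14, adjusted p = 5.17e-07) and 3.34 with etomoxir (SE 0.15, adjusted p = 5.88e-08). Ddit3, which encodes the pro-apoptotic factor CHOP (chr10:126727849-126733344, plus strand, mm9), stood at 126 and 86.7 CPM with vehicle and 522 and 451 CPM with SR-3420. Its values with triacsin C were 161, 219 and 171 CPM without SR-3420 and 746, 799 and 634 CPM with it. Its values with etomoxir were 192, 139 and 102 CPM without SR-3420 and 614, 576 and 408 CPM with it. Again no sample without SR-3420 reached the lowest sample with it. The log2 fold changes of Ddit3 were 2.19 (SE 0.30), 1.98 (SE 0.24) and 1.88 (SE 0.24), with edgeR adjusted p = 0.000791, 4.74e-05 and 0.000139. Ddit3 overlaps Mars on the other strand, and whether the counts used strand is not given in the sources used here, so reads of this pair may not be told apart.

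Of the other factors, Jdp2, a dimer partner of ATF and JUN proteins, ran from 27.4 to 40.6 CPM without SR-3420 and from 58 to 104 CPM with it, and was called higher in all 3 comparisons (log2 fold change 1.07, 1.40 and 1.25, edgeR adjusted p = 0.00348, 2.06e-05 and 9.11e-05). The call without inhibitor was lost for Jdp2 without vehicle replicate 3 (edgeR adjusted p = 0.0558). Nupr1, a small stress-induced chromatin protein, was called with triacsin C (0.58, SE 0.14, edgeR adjusted p = 0.00552) and with etomoxir (0.74, SE 0.14, adjusted p = 0.00189). Without inhibitor its log2 fold change was 0.51 (SE 0.17, edgeR adjusted p = 0.0909), which DESeq2 called (adjusted p = 0.0439), and the difference from the response with triacsin C was 0.06 (adjusted p = 0.895) and from that with etomoxir 0.23 (adjusted p = 0.988). Atf5, whose translation is controlled much as that of Atf4, was at 389 and 261 CPM with vehicle, 520 and 376 CPM with SR-3420, 489, 663 and 498 CPM with triacsin C and 502, 463 and 365 CPM with triacsin C and SR-3420. With etomoxir it was at 446, 371 and 267 CPM without SR-3420 and 409, 338 and 288 CPM with it. All 3 pairs overlapped, and the edgeR adjusted p was 0.375, 0.309 and 0.873. Cebpg, a C/EBP-family partner of ATF4, ran from 70.6 to 174 CPM without SR-3420 and from 75.2 to 212 CPM with it, with adjusted p = 0.968, 0.197 and 0.569 in edgeR. In the edgeR model without replicate number, Atf5 and Cebpg were not called in any of the 10 comparisons. Their calls with replicate number as a term are given below.

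Among the 8 feedback and signalling proteins, 7 were called higher without inhibitor, 7 when triacsin C was present and 6 when etomoxir was, and this role had the largest median log2 fold change without inhibitor, 1.79. Ppp1r15a, which brings a phosphatase to eIF2, stood at 46.2 and 36 CPM with vehicle and 159 and 200 CPM with SR-3420. In triacsin C samples it was at 84.9, 100 and 82.1 CPM without SR-3420 and 374, 425 and 367 CPM with it, and with etomoxir at 56.9, 57.9 and 44.5 CPM without and 238, 273 and 218 CPM with it. All samples with SR-3420 lay above all samples without it. The 3 responses of Ppp1r15a were 2.13 (SE 0.20), 2.12 (SE 0.16) and 2.19 (SE 0.16) on the log2 scale, with edgeR adjusted p = 4.09e-05, 1.73e-06 and 1.93e-06. Chac1, which degrades glutathione, ran from 35.5 to 95.9 CPM without SR-3420 and from 169 to 366 CPM with it (log2 fold change 2.12, 2.15 and 1.62, edgeR adjusted p = 0.000867, 2.46e-05 and 0.000329). Stc2, a secreted glycoprotein, stood at 1.66 to 3.11 CPM without SR-3420 and 9.61 to 17.9 CPM with it (log2 fold change 2.09, 2.55 and 2.28, edgeR adjusted p = 0.000667, 6.3e-06 and 1.98e-05). Sesn2, an inhibitor of the growth kinase complex mTORC1, gave smaller changes of 0.90, 0.72 and 0.84 (edgeR adjusted p = 0.0469, 0.0145 and 0.00935). Without inhibitor its call was lost when any 1 of the 4 samples was left out (edgeR adjusted p from 0.0607 to 0.309), and with triacsin C when triacsin C replicate 3 was (adjusted p = 0.0606). With etomoxir the Sesn2 call was lost in the fit of only the groups compared (edgeR adjusted p = 0.0712).

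Vldlr, a lipoprotein receptor, stood at 37.2 and 31.7 CPM with vehicle and 101 and 93.9 CPM with SR-3420. The values were 40.2, 35.3 and 34.9 CPM with triacsin C, 103, 99.8 and 104 CPM with triacsin C and SR-3420, 37.5, 37.9 and 37.1 CPM with etomoxir and 88, 88.1 and 94.3 CPM with etomoxir and SR-3420. The 8 samples without SR-3420 lay close together, as did the 8 samples with it, with a wide gap between them. The log2 fold change was 1.50 (SE 0.13), 1.48 (SE 0.10) and 1.26 (SE 0.10), with edgeR adjusted p = 2.1e-05, 9.7e-07 and 4e-06. Ddit4, an inhibitor of mTORC1 also known as REDD1, stood at 113 and 69.3 CPM with vehicle and 513 and 289 CPM with SR-3420. Triacsin C gave 200, 254 and 192 CPM without SR-3420 and 478, 462 and 352 CPM with it, and with etomoxir at 81.3, 65.3 and 37.2 CPM without and 504, 311 and 358 CPM with it. SR-3420 samples lay above their controls in each pair, and the controls were higher with triacsin C than with vehicle or etomoxir. Its response was 2.13 without inhibitor (SE 0.38, edgeR adjusted p = 0.00461), 1.00 with triacsin C (SE 0.30, adjusted p = 0.0199) and 2.67 with etomoxir (SE 0.32, adjusted p = 9.03e-05). The call of Ddit4 without inhibitor was lost without vehicle replicate 3 or SR-3420 replicate 1 (edgeR adjusted p = 0.0709 and 0.0518). The call with triacsin C was lost without triacsin C replicate 1, triacsin C replicate 3 or replicate 1 of triacsin C with SR-3420 (edgeR adjusted p = 0.0647, 0.0707 and 0.0579).

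Trib3, a pseudokinase that binds and restrains ATF4 (chr2:152163161-152169796, minus strand, mm9), was called for SR-3420 alone and with triacsin C. It stood at 132 and 92 CPM with vehicle and 218 and 207 CPM with SR-3420. Under triacsin C it was at 132, 165 and 141 CPM without SR-3420 and 282, 281 and 230 CPM with it. Etomoxir gave 230, 203 and 158 CPM without SR-3420 and 213, 201 and 170 CPM with it. The etomoxir groups overlapped throughout, and the values with etomoxir alone spanned those with SR-3420 alone. The log2 fold change was 0.92 without inhibitor (SE 0.21, edgeR adjusted p = 0.0185), 0.86 with triacsin C (SE 0.17, adjusted p = 0.00176) and -0.02 with etomoxir (SE 0.17, adjusted p = 0.955). The tests of the difference gave -0.94 for etomoxir minus no inhibitor (SE 0.27, edgeR adjusted p = 0.988) and 0.88 for triacsin C minus etomoxir (SE 0.24, adjusted p = 0.0923), so a difference between the responses of Trib3 was not called. By DESeq2 the adjusted p of the latter was 0.0131, and in edgeR it was 0.0485 without etomoxir replicate 3. Without vehicle replicate 3, SR-3420 replicate 1 or SR-3420 replicate 3 the call of Trib3 for SR-3420 alone was lost (edgeR adjusted p = 0.175, 0.1 and 0.0585). Eif4ebp1, a translation repressor, was not called, at 321 to 667 CPM without SR-3420 and 353 to 547 CPM with it (edgeR adjusted p = 0.896, 0.384 and 0.577).

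**Figure D3:**
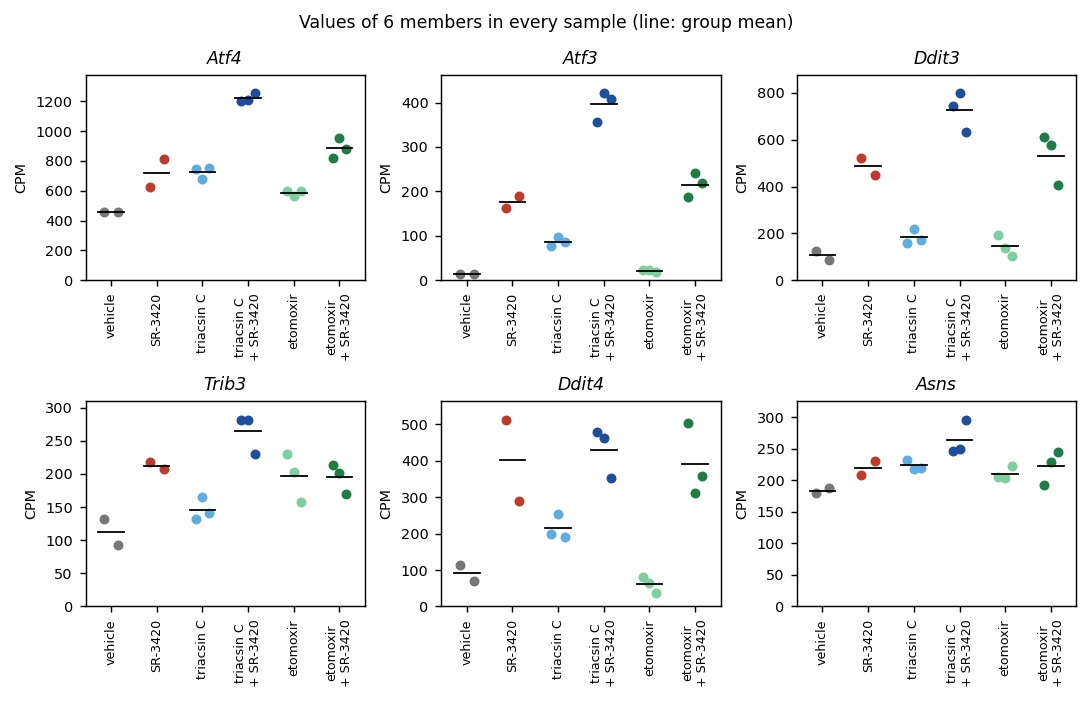
CPM of Atf4, Atf3, Ddit3, Trib3, Ddit4 and Asns in each sample (points) by group, with the group mean as a line. Atf3 ran from 13.6 to 14.5 CPM with vehicle and from 357 to 421 CPM with triacsin C and SR-3420, while the Trib3 values with etomoxir overlapped with and without SR-3420.

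The 7 enzymes of serine synthesis and one-carbon metabolism had positive log2 fold changes in all 3 SR-3420 comparisons, and 4, 6 and 6 of them were called higher. Those called in all 3 were the mitochondrial enzymes Shmt2, Mthfd2, Mthfd1l and Aldh1l2, which pass one-carbon units along the folate cycle. Mthfd1l stood at 49.1 and 51.5 CPM with vehicle and 89.3 and 117 CPM with SR-3420. In the triacsin C samples its values were 59.2, 52.6 and 62 CPM without SR-3420 and 127, 138 and 134 CPM with it, and with etomoxir at 51.8, 53.1 and 46.1 CPM without and 119, 136 and 107 CPM with it. No sample with SR-3420 fell into the range of those without it. Log2 fold changes of Mthfd1l were 1.04 (SE 0.16), 1.20 (SE 0.13) and 1.26 (SE 0.13), with edgeR adjusted p = 0.00171, 2.34e-05 and 3.05e-05. Aldh1l2 stood at 108 and 115 CPM with vehicle and 183 and 268 CPM with SR-3420. Triacsin C gave 134, 107 and 146 CPM without SR-3420 and 344, 362 and 392 CPM with it, and with etomoxir at 102, 113 and 116 CPM without and 235, 339 and 271 CPM with it. Here too the samples with SR-3420 lay above all others, by 1.01 (SE 0.21), 1.50 (SE 0.17) and 1.35 (SE 0.17) on the log2 scale (edgeR adjusted p = 0.0104, 3.26e-05 and 0.00014). Without vehicle replicate 2, vehicle replicate 3 or SR-3420 replicate 3 the call of Aldh1l2 for SR-3420 alone was lost (edgeR adjusted p = 0.0889, 0.0728 and 0.0949).

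Mthfd2 ran from 160 to 255 CPM without SR-3420 and from 258 to 429 CPM with it (log2 fold change 0.75, 0.73 and 0.53, edgeR adjusted p = 0.00578, 0.000287 and 0.0043). Shmt2 ran from 185 to 368 CPM without SR-3420 and from 342 to 663 CPM with it (0.91, 0.79 and 0.90, edgeR adjusted p = 0.0363, 0.00668 and 0.00479). Shmt2 overlaps Ndufa4l2 on the other strand, with the same limit as for Ddit3. Without inhibitor, the call of Mthfd2 was lost without vehicle replicate 3 or SR-3420 replicate 3 (edgeR adjusted p = 0.0762 and 0.0565), and that of Shmt2 when any 1 of the 4 samples was left out (adjusted p from 0.0711 to 0.253). Phgdh, Psat1 and Psph make serine from a glycolytic intermediate. Psat1 was called with triacsin C (0.75, SE 0.18, edgeR adjusted p = 0.00567) and with etomoxir (0.74, SE 0.18, adjusted p = 0.00931), and gave 0.47 without inhibitor (SE 0.22, adjusted p = 0.24). Psph was likewise called with triacsin C (0.49, SE 0.12, edgeR adjusted p = 0.00506) and with etomoxir (0.36, SE 0.12, adjusted p = 0.0361), and gave 0.18 without inhibitor (SE 0.14, adjusted p = 0.51). The differences between the responses with and without inhibitor were not called for Psat1 (0.28 for triacsin C and 0.27 for etomoxir, edgeR adjusted p = 0.62 and 0.988) or Psph (0.31 and 0.18, adjusted p = 0.425 and 0.988). In the fit of only the groups compared, the calls with etomoxir were lost for Shmt2, Mthfd2, Psat1 and Psph (edgeR adjusted p = 0.0593, 0.0732, 0.0679 and 0.177). With etomoxir, Psat1 was also no longer called without replicate 2 of etomoxir with SR-3420 (edgeR adjusted p = 0.0515), and Psph was not without etomoxir replicate 2 or 3 or replicate 2 or 3 of etomoxir with SR-3420 (adjusted p from 0.0677 to 0.148) or with no filter on low counts (adjusted p = 0.0799). Phgdh, the entry step, was not called at 0.81, 0.65 and 0.63 (edgeR adjusted p = 0.141, 0.0596 and 0.0872). Phgdh was called with triacsin C by DESeq2 (adjusted p = 0.0325), in the fit of only the groups compared (edgeR adjusted p = 0.0176) and without replicate 3 of triacsin C with SR-3420 (adjusted p = 0.0388), and with etomoxir without replicate 3 of etomoxir with SR-3420 (adjusted p = 0.0331).

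The 6 other amino acid enzymes were the role with the fewest members called higher, 1 in each of the 3 comparisons, and with 1, 1 and 2 called lower. Over all genes tested, 4.75%, 17.3% and 12.5% were called higher and 2.79%, 19.7% and 12.8% lower. With either inhibitor 1 of 6 higher is therefore near the share of all genes. Aldh18a1, which makes the proline precursor pyrroline-5-carboxylate, was the one called higher. It stood at 104 and 89.2 CPM with vehicle, 207 and 201 CPM with SR-3420, 140, 131 and 129 CPM with triacsin C and 281, 274 and 258 CPM with triacsin C and SR-3420. In etomoxir samples it was at 129, 120 and 94.6 CPM without SR-3420 and 223, 240 and 171 CPM with it. The groups with and without SR-3420 did not overlap, and the log2 fold changes of Aldh18a1 were 1.07 (SE 0.18), 1.02 (SE 0.14) and 0.88 (SE 0.14), with edgeR adjusted p = 0.0027, 0.000136 and 0.000739. Pycr1, which completes proline synthesis, stood at 12.9 and 9.31 CPM with vehicle, 26.1 and 18.7 CPM with SR-3420, 18.8, 18.3 and 13.3 CPM with triacsin C and 32.5, 27.8 and 21.6 CPM with triacsin C and SR-3420. Under etomoxir it was at 15.9, 12.6 and 7.95 CPM without SR-3420 and 24.1, 25 and 14.3 CPM with it. Only the etomoxir groups overlapped. The values of Pycr1, 1.01 (SE 0.35), 0.70 (SE 0.28) and 0.80 (SE 0.28), did not pass the threshold (edgeR adjusted p = 0.103, 0.0669 and 0.0552). DESeq2 called Pycr1 with triacsin C and with etomoxir (adjusted p = 0.0359 and 0.0279), and the edgeR fit of only the groups compared called it with triacsin C (adjusted p = 0.0213). With etomoxir Pycr1 was called without etomoxir replicate 1 or without replicate 3 of etomoxir with SR-3420 (edgeR adjusted p = 0.0318 and 0.0192).

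Asns, the asparagine synthetase that is a much-used reporter of ATF4 activity, ran from 180 to 232 CPM without SR-3420 and from 192 to 296 CPM with it. Its log2 fold changes were 0.26 (SE 0.14), 0.24 (SE 0.12) and 0.08 (SE 0.12), and none was called (edgeR adjusted p = 0.32, 0.123 and 0.681). By DESeq2 the value with triacsin C passed, at 0.26 and an adjusted p of 0.0483. Cth, which makes cysteine, ran from 14.3 to 30.2 CPM without SR-3420 and from 16.3 to 37.5 CPM with it and was not called (edgeR adjusted p = 0.377, 0.198 and 0.946). Cbs makes cystathionine, the substrate of Cth, and was called lower with either inhibitor. It ran from 14.2 to 29.2 CPM without SR-3420 and from 4.46 to 17 CPM with it, and in each pair of groups the samples with SR-3420 lay below the others. Cbs was called lower with triacsin C (-1.37, SE 0.29, edgeR adjusted p = 0.00228) and with etomoxir (-1.42, SE 0.28, adjusted p = 0.00284), and gave -0.97 without inhibitor (SE 0.34, adjusted p = 0.105), which DESeq2 called (adjusted p = 0.0476). The differences of these responses from that without inhibitor were -0.40 and -0.45 (edgeR adjusted p = 0.651 and 0.988).

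Gpt2, the mitochondrial alanine aminotransferase, stood at 239 and 209 CPM with vehicle and 140 and 169 CPM with SR-3420. With triacsin C it was at 160, 175 and 182 CPM without SR-3420 and 155, 172 and 158 CPM with it, and with etomoxir at 218, 215 and 203 CPM without and 141, 153 and 144 CPM with it. The triacsin C groups overlapped, at levels close to those with SR-3420 alone, and the other pairs did not. Gpt2 fell with SR-3420 alone (-0.54, SE 0.13, edgeR adjusted p = 0.0263) and with etomoxir (-0.54, SE 0.11, adjusted p = 0.0027), and gave -0.09 with triacsin C (SE 0.11, adjusted p = 0.523). The test of the difference was not called, at 0.44 for triacsin C minus no inhibitor (SE 0.17, edgeR adjusted p = 0.2) and 0.45 for triacsin C minus etomoxir (SE 0.15, adjusted p = 0.181). By DESeq2 both differences passed, with adjusted p = 0.0334 and 0.0151. For SR-3420 alone the call of Gpt2 was lost without vehicle replicate 2, vehicle replicate 3 or SR-3420 replicate 1 (edgeR adjusted p = 0.172, 0.0645 and 0.224) and with no filter on low counts (adjusted p = 0.0531).

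Of the 8 amino acid transporters, 4 were called higher without inhibitor and 7 with either inhibitor, and 1 was called lower with triacsin C. Over all genes tested 19.7% were called lower with triacsin C, so 1 of 8 is below that share. Slc7a1, the cationic amino acid transporter CAT1, stood at 150 and 133 CPM with vehicle and 497 and 470 CPM with SR-3420. In the presence of triacsin C it was at 206, 189 and 188 CPM without SR-3420 and 753, 747 and 719 CPM with it, and with etomoxir at 208, 212 and 204 CPM without and 570, 690 and 532 CPM with it. The groups were tight and far apart, with log2 fold changes of 1.77 (SE 0.14), 1.93 (SE 0.12) and 1.52 (SE 0.11) and edgeR adjusted p = 1.28e-05, 4.77e-07 and 2.28e-06. Slc7a5, the large neutral amino acid exchanger LAT1, stood at 410 and 260 CPM with vehicle and 1219 and 741 CPM with SR-3420. Triacsin C samples gave 530, 659 and 469 CPM without SR-3420 and 1376, 1180 and 901 CPM with it, and with etomoxir at 497, 410 and 276 CPM without and 1196, 952 and 647 CPM with it. Within each pair the SR-3420 samples were higher, but the replicates of Slc7a5 were more widely spread than those of Slc7a1. Its log2 fold changes were 1.55 (SE 0.36), 1.06 (SE 0.29) and 1.24 (SE 0.29), with edgeR adjusted p = 0.0207, 0.0122 and 0.0076. The call of Slc7a5 without inhibitor was lost without vehicle replicate 3 or SR-3420 replicate 1 (edgeR adjusted p = 0.18 for each), and that with triacsin C without triacsin C replicate 3 (adjusted p = 0.0524). Slc3a2, the heavy chain that partners LAT1 at the membrane, ran from 262 to 619 CPM without SR-3420 and from 785 to 1301 CPM with it (log2 fold change 1.45, 1.12 and 1.24, edgeR adjusted p = 0.00117, 0.000246 and 0.000238).

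Slc1a4, a transporter of alanine, serine and cysteine, stood at 77 and 68.7 CPM with vehicle and 104 and 122 CPM with SR-3420. Under triacsin C it was at 81.1, 82.5 and 84.3 CPM without SR-3420 and 180, 176 and 175 CPM with it, and with etomoxir at 67.8, 69.2 and 57.7 CPM without and 136, 151 and 105 CPM with it. SR-3420 samples were above all samples without it, and those with triacsin C and SR-3420 were the highest. Slc1a4 was 1.55-fold, 2.14-fold and 2.01-fold higher with SR-3420, with edgeR adjusted p = 0.0346, 5.3e-05 and 0.000189, and the call without inhibitor was lost when any 1 of the 4 samples was left out (adjusted p from 0.0708 to 0.212). Slc7a3, the cationic transporter CAT3, was the lowest member at vehicle per length, with 3.29 and 1.75 CPM with vehicle, 5.13 and 4.51 CPM with SR-3420, 4.41, 3.69 and 3.03 CPM with triacsin C and 7.81, 7.76 and 11 CPM with triacsin C and SR-3420. Etomoxir gave 2.3, 2.13 and 2.49 CPM without SR-3420 and 5.9, 9.35 and 6.59 CPM with it. Samples with SR-3420 were higher in each pair. Slc7a3 was called with triacsin C (1.26, SE 0.26, edgeR adjusted p = 0.00192) and with etomoxir (1.65, SE 0.26, adjusted p = 0.000627) and gave 0.92 without inhibitor (SE 0.32, adjusted p = 0.107), with differences of 0.34 and 0.73 from the latter (adjusted p = 0.679 and 0.988).

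Slc6a9, the glycine transporter GLYT1, and Slc38a2, the neutral amino acid transporter SNAT2, were also called with either inhibitor and not without. Slc6a9 gave 0.73 without inhibitor (SE 0.26, edgeR adjusted p = 0.104), 1.16 with triacsin C (SE 0.21, adjusted p = 0.000863) and 0.61 with etomoxir (SE 0.21, adjusted p = 0.0451), and its differences from the response without inhibitor were 0.43 and -0.12 (adjusted p = 0.527 and 0.988). Slc38a2 gave 0.57 without inhibitor (SE 0.19, edgeR adjusted p = 0.0904), 0.88 with triacsin C (SE 0.15, adjusted p = 0.000683) and 0.51 with etomoxir (SE 0.15, adjusted p = 0.027, groups overlapping), with differences of 0.31 and -0.05 (adjusted p = 0.53 and 0.989). Slc6a9 overlaps Ccdc24 on the other strand, with the limit given for Ddit3. With etomoxir, the call of Slc6a9 was lost without etomoxir replicate 2 or 3 or replicate 1 or 2 of etomoxir with SR-3420 (edgeR adjusted p from 0.0921 to 0.136) and under a filter of at least 10 counts in every sample (adjusted p = 0.0504) or in the fit of only the groups compared (adjusted p = 0.136). The call of Slc38a2 was lost without etomoxir replicate 1 or 2 or replicate 2 or 3 of etomoxir with SR-3420 (edgeR adjusted p from 0.0746 to 0.115) and with no filter on low counts (adjusted p = 0.0696) or in the fit of only the groups compared (adjusted p = 0.18). Slc1a5, the glutamine transporter ASCT2, moved the other way from the rest of its role. It ran from 534 to 1237 CPM without SR-3420 and from 469 to 858 CPM with it, and was called lower with triacsin C (-0.92, SE 0.21, edgeR adjusted p = 0.00337). Without inhibitor the value was -0.28 (SE 0.25, edgeR adjusted p = 0.573) and with etomoxir -0.37 (SE 0.20, adjusted p = 0.203). The response of Slc1a5 with triacsin C differed from these by -0.65 (edgeR adjusted p = 0.338) and -0.55 (adjusted p = 0.493), and neither difference was called.

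**Figure D4:**
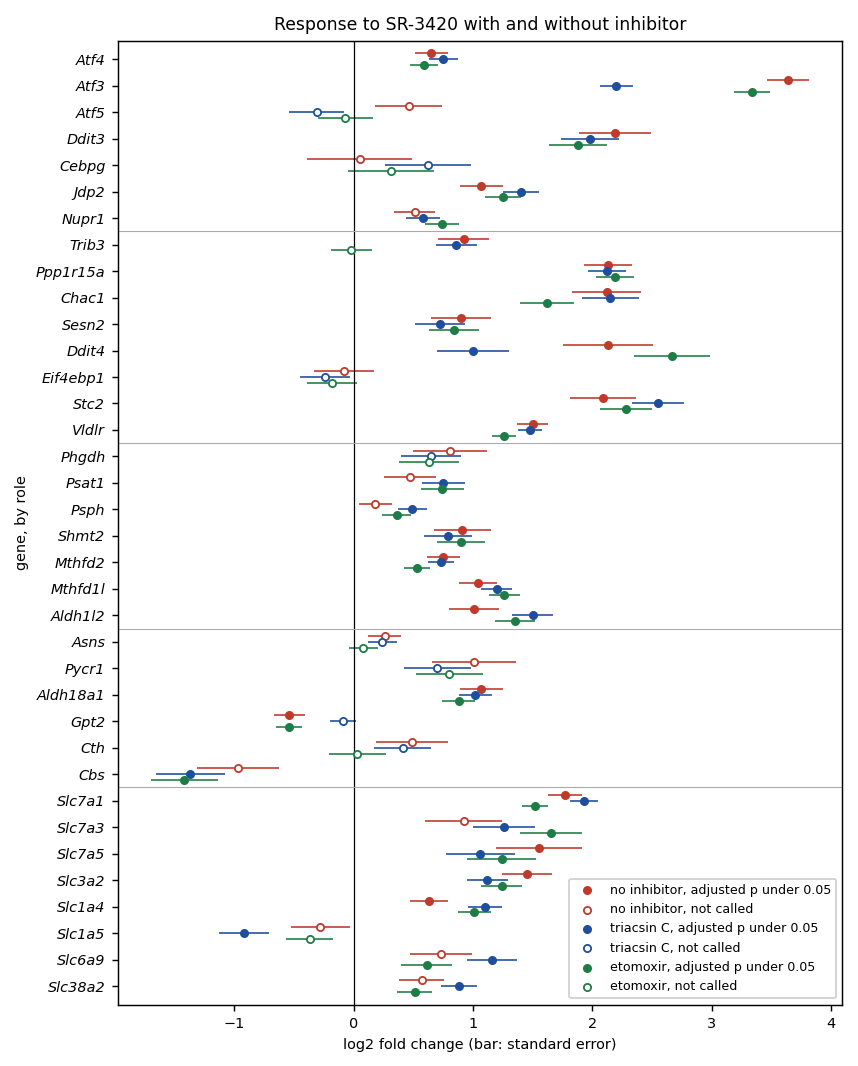
Log2 fold change for SR-3420 of each member, by role, without inhibitor (red), with triacsin C (blue) and with etomoxir (green), with the standard error as a bar and filled points for an edgeR adjusted p under 0.05. Atf3 lay at 3.64, 2.20 and 3.34, and Trib3 with etomoxir at -0.02.

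Whether an inhibitor changed the response to SR-3420 was tested directly as a difference of log2 fold changes. For triacsin C minus no inhibitor, 1 of the 36 members was called, where 2.51% of all genes tested were called in either direction. That member was Atf3, at -1.45 (SE 0.22, edgeR adjusted p = 0.00494), and the members' median difference was -0.02 beside -0.04 over all genes tested. By DESeq2 2 members were called in this test, Atf3 and Gpt2. Atf3 rose 12.5-fold without inhibitor and 4.59-fold with triacsin C, where its level was higher both before and after SR-3420. For etomoxir minus no inhibitor, edgeR called 0 of the 36 members and 0% of all genes tested, with 1 member, Trib3, at an unadjusted p under 0.05 and 0 by DESeq2. Here the members' median difference was -0.10 beside 0.00 over all genes tested. An approximate interval of 95% for the difference with etomoxir was -0.41 to 0.30 for Atf4 and -0.72 to 0.12 for Atf3. It is somewhat narrower than the quasi-likelihood F-test would give. For Ddit3 the approximate interval was -1.03 to 0.41, and differences within these bounds or somewhat beyond them remain possible. The bounds do not set the smallest difference that could be called, since Trib3 at -0.94 was not called either. For triacsin C minus etomoxir, 1 member was called, where 2.29% of all genes tested were. It was again Atf3, at -1.15 (SE 0.19, edgeR adjusted p = 0.0079), and the median was 0.10 beside -0.06 over all genes tested. DESeq2 called 5 members in this test, Atf3, Ddit4 (-1.65, adjusted p = 0.00779), Trib3 (0.90, adjusted p = 0.0131), Gpt2 (0.48, adjusted p = 0.0151) and Slc7a1 (0.44, adjusted p = 0.0415). The tests with triacsin C share its 6 samples and are not independent. Each of them called more members when replicate number was a term of the model, with the counts given below. Ddit4 came closest among the others, at -1.67 for triacsin C minus etomoxir (SE 0.43, edgeR adjusted p = 0.0642), and was called without etomoxir replicate 1 (adjusted p = 0.0468). With that replicate left out 2 members were called in place of 1, as was so without etomoxir replicate 3.

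Members with the next smallest p in these tests were examined for the same reason. For triacsin C minus no inhibitor the difference was -1.14 for Ddit4 (SE 0.48, edgeR adjusted p = 0.246), -0.77 for Atf5 (SE 0.36, adjusted p = 0.306) and 0.47 for Slc1a4 (SE 0.21, adjusted p = 0.287). For triacsin C minus etomoxir it was 0.41 for Slc7a1 (SE 0.16, edgeR adjusted p = 0.27). For etomoxir minus no inhibitor it was 0.38 for Slc1a4 (SE 0.21), -0.53 for Atf5 (SE 0.36) and -0.23 for Vldlr (SE 0.16), each with an edgeR adjusted p of 0.988. None of these passed the threshold in edgeR, and by DESeq2 Slc7a1 did in the test of triacsin C minus etomoxir.

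Triacsin C alone raised part of the programme. Against vehicle, 8 of the 36 members were called higher, where 4.77% of all genes tested were, and 0 were called lower by edgeR, where 6.94% of all genes tested were. In either direction 18 members had an unadjusted p under 0.05 and 12 were called by DESeq2. More members were also called when replicate number was a term of the model, with the count given below. The members' median log2 fold change was 0.44 beside 0.07 over all genes tested. The 8 were Atf4 (0.67, SE 0.13, edgeR adjusted p = 0.0043), Atf3 (2.61, SE 0.17, adjusted p = 1.1e-06), Nupr1 (0.85, adjusted p = 0.00316), Ppp1r15a (1.12, adjusted p = 0.000999), Ddit4 (1.24, adjusted p = 0.0355), Mthfd2 (0.56, adjusted p = 0.0112), Slc7a1 (0.46, adjusted p = 0.0323) and Slc3a2 (0.92, adjusted p = 0.0067). In each of the 8 all 3 triacsin C samples lay above both vehicle samples. Ddit3 (0.79, SE 0.27, edgeR adjusted p = 0.0765), Chac1 (0.75, SE 0.26, adjusted p = 0.0863) and Asns (0.29, SE 0.13, adjusted p = 0.199) did not pass. By DESeq2, Ddit3 (adjusted p = 0.0368), Atf5 (0.045) and Aldh18a1 (0.0474) also passed as higher and Gpt2 as lower (-0.40, adjusted p = 0.00282). Without vehicle replicate 3 the count fell to 3, Atf4, Atf3 and Ppp1r15a, and Nupr1, Mthfd2 and Slc3a2 were lost (edgeR adjusted p = 0.0589, 0.147 and 0.109). The calls of Ddit4 and Slc7a1 were lost when any 1 of the 5 samples was left out (edgeR adjusted p from 0.0545 to 0.318), and that of Slc7a1 also with no filter on low counts (adjusted p = 0.126) and in the fit of only the groups compared (adjusted p = 0.0964), where Chac1 was called (adjusted p = 0.0491). In the same comparison 3 of the 12 brown adipocyte markers tested were called lower, Pparg (-1.48, edgeR adjusted p = 0.000182), Prdm16 (-2.14, adjusted p = 0.000255) and Ppargc1a (-1.04, adjusted p = 0.0196), and their part in the members' levels was not tested.

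Etomoxir alone gave no member called in edgeR, where 0.0235% of all genes tested were called in either direction, with 9 members at an unadjusted p under 0.05 and 2 by DESeq2. Those 2 were Trib3 and Slc7a1, with a DESeq2 adjusted p of 0.0452 and 0.00131. In edgeR Slc7a1 was at 0.55 (SE 0.13, adjusted p = 0.779), Trib3 at 0.81 (SE 0.20, adjusted p = 0.809) and Atf3 at 0.59 (SE 0.16, adjusted p = 0.944). For these 3 genes all etomoxir samples lay above both vehicle samples. The members' median log2 fold change was 0.17 beside 0.01 over all genes tested. The vehicle samples are shared by the comparisons of SR-3420, triacsin C and etomoxir with vehicle, so a high or low vehicle value enters all 3.

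**Figure D5:**
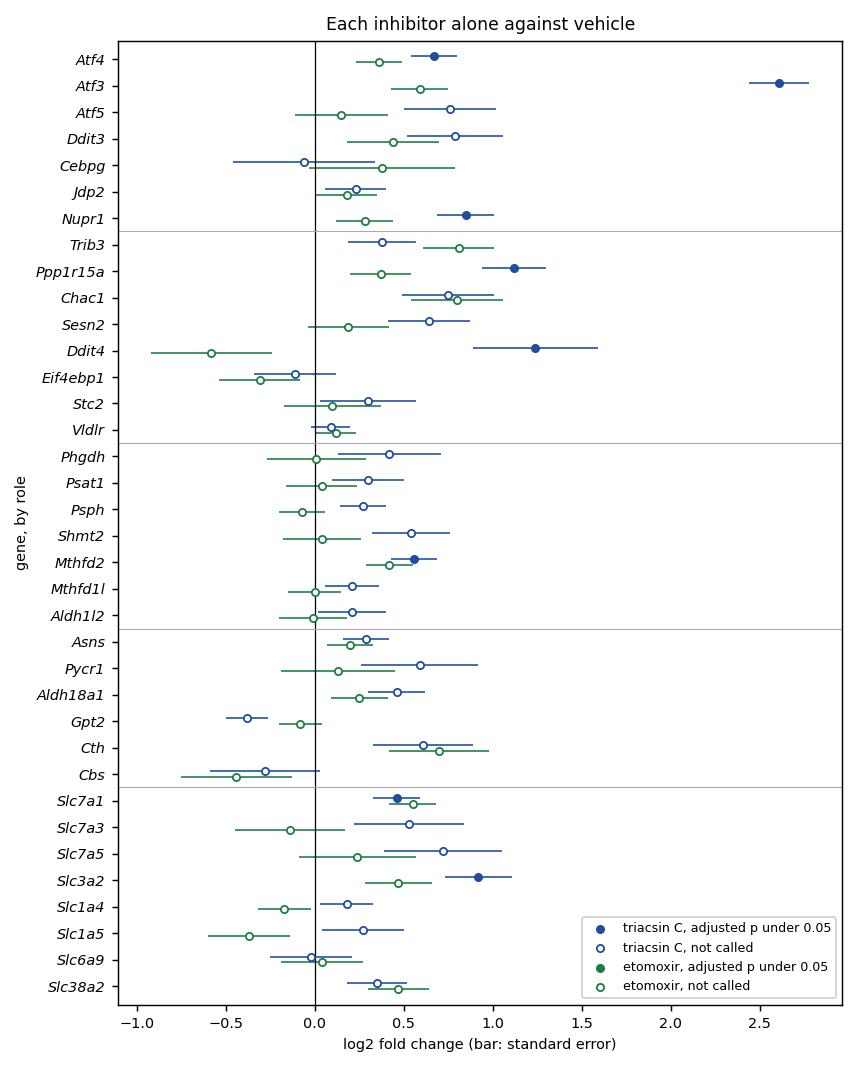
Log2 fold change of each member, by role, for triacsin C (blue) and etomoxir (green) against vehicle, with the standard error as a bar and filled points for an edgeR adjusted p under 0.05. The 8 filled points are those of triacsin C, led by Atf3 at 2.61, and no etomoxir point is filled.

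In the presence of SR-3420, triacsin C also raised members of the programme. Against SR-3420 alone, 9 of the 36 were called higher, where 1.02% of all genes tested were, and 0 were called lower by edgeR, where 3.55% of all genes tested were. In either direction 20 members had an unadjusted p under 0.05 and 16 were called by DESeq2, and the median log2 fold change was 0.52 beside 0.02 over all genes tested. The 9 were Atf4 (0.77, SE 0.13, edgeR adjusted p = 0.00609), Atf3 (1.16, SE 0.15, adjusted p = 0.00175), Nupr1 (0.91, adjusted p = 0.00653), Ppp1r15a (1.11, adjusted p = 0.0039), Psph (0.57, adjusted p = 0.0247), Mthfd2 (0.55, adjusted p = 0.0288), Slc7a1 (0.61, adjusted p = 0.0154), Slc1a4 (0.65, adjusted p = 0.0275) and Slc38a2 (0.67, adjusted p = 0.0466). The 7 that DESeq2 added were Jdp2, Chac1, Stc2, Psat1, Aldh1l2, Slc7a3 and Slc3a2, with log2 fold changes from 0.58 to 0.89 and an adjusted p from 0.00637 to 0.0484. Leaving out SR-3420 replicate 1 left 1 call, Atf3, with an edgeR adjusted p from 0.0895 to 0.385 for the others, and leaving out replicate 2 or replicate 3 of triacsin C with SR-3420 left 5 each. Slc1a4 and Slc38a2 were lost whichever of the 5 samples was left out (edgeR adjusted p from 0.0561 to 0.335), and Slc7a1 also without SR-3420 replicate 3 (adjusted p = 0.0826). Psph was also lost without SR-3420 replicate 3 or replicate 2 or 3 of triacsin C with SR-3420 (edgeR adjusted p = 0.0573, 0.0543 and 0.101), and Mthfd2 without replicate 1, 2 or 3 of the latter (adjusted p = 0.0649, 0.0706 and 0.0957). With no filter on low counts Psph, Mthfd2 and Slc38a2 were lost (edgeR adjusted p = 0.0503, 0.0561 and 0.101), and in the fit of only the groups compared 1 call, Atf3, was made. Etomoxir with SR-3420 against SR-3420 alone gave 0 members called in edgeR, where 0.00782% of all genes tested were called in either direction, with 7 members at an unadjusted p under 0.05 and 0 by DESeq2. The median of the members was 0.17 there, beside 0.00 over all genes tested. These comparisons share the SR-3420 samples. For both inhibitors, more members were called when replicate number was a term of the model. The counts are given below, with the dependence on the processing. Among the 12 brown adipocyte markers, 5 were called lower with triacsin C and SR-3420 than with SR-3420 alone: Ppargc1a (-1.30), Prdm16 (-1.34), Lipe (-1.35), Adipoq (-1.04) and Plin1 (-1.45), with an edgeR adjusted p from 0.0138 to 0.0248, and their part in the members' levels was not tested.

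On the scale of mean CPM per kilobase of counted length, which allows levels of different genes to be compared, the order of the members shifted with treatment. With vehicle, Eif4ebp1 was the most abundant at 567 per kilobase, followed by Slc1a5 at 328, Atf4 at 265, Atf5 at 187 and Ddit3 at 141. At the other end were Pycr1 at 3.81, Stc2 at 1.32 and Slc7a3 at 1.11. The place of Ddit3 in this order is subject to its overlap with Mars and to the cap on short abundant genes given under the processing. With SR-3420, Ddit3 came to the top at 644 per kilobase, ahead of Eif4ebp1 at 538 and Atf4 at 415. With triacsin C and SR-3420 it was at 962, ahead of Atf4 at 707 and Eif4ebp1 at 445, and with etomoxir and SR-3420 at 705, ahead of Atf4 at 512 and Eif4ebp1 at 403. With triacsin C or etomoxir alone the order kept Eif4ebp1 at the top, at 526 and 456, with Atf4 next at 420 and 340.

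Other genes linked to the pathway were counted from lists that held no member. These lists too were chosen with earlier results of these data known, so their counts are a description. Of 12 further reported ATF4 targets, 8 were called higher and 1 lower without inhibitor (median log2 fold change 0.85), 8 and 1 with triacsin C (0.79) and 9 and 1 with etomoxir (1.00). The one called lower was Map1lc3b each time. Over all genes tested, 4.75%, 17.3% and 12.5% were called higher in these comparisons and 2.79%, 19.7% and 12.8% lower. Fgf21, the hormone named above, stood at 0.877 and 0.553 CPM with vehicle, 9.9 and 9.21 CPM with SR-3420, 2.58, 2.8 and 3.26 CPM with triacsin C and 11.8, 14.1 and 12.2 CPM with triacsin C and SR-3420. In etomoxir samples it was at 3.23, 3.47 and 3.15 CPM without SR-3420 and 9.84, 10 and 10.4 CPM with it. Both inhibitors alone raised it, triacsin C by 1.98 (SE 0.23, edgeR adjusted p = 0.000102) and etomoxir by 2.16 (SE 0.23, adjusted p = 0.0021), and it was the only list gene called with etomoxir alone. The response of Fgf21 to SR-3420 was smaller with triacsin C than without, by -1.57 (SE 0.29, edgeR adjusted p = 0.014), and the difference with etomoxir was -2.08 (SE 0.29, adjusted p = 0.0692). All of these Fgf21 fold changes and differences rest on the vehicle levels of 0.877 and 0.553 CPM, which are near the floor. Adm2, a peptide hormone, gave 3.26 (SE 0.33), 2.70 (SE 0.24) and 3.25 (SE 0.26) for SR-3420, with edgeR adjusted p = 0.000102, 6.86e-06 and 3.57e-06. Its vehicle levels were also near the floor, at 0.951 and 0.553 CPM. With triacsin C alone 6 of the 12 were called higher and 1, Bbc3, lower, where 4.77% of all genes tested were higher and 6.94% lower.

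Cytosolic aminoacyl-tRNA synthetases, which charge tRNAs with amino acids, were higher in part: 8 of 20 without inhibitor, 12 when triacsin C was present and 9 when etomoxir was, with none called lower by edgeR and medians of 0.43, 0.64 and 0.46. In either direction 10, 13 and 14 had an unadjusted p under 0.05 in edgeR and 9, 12 and 11 were called by DESeq2. Examples are Nars (0.88, 0.87 and 0.93, edgeR adjusted p = 0.00214, 8.46e-05 and 0.000105) and Cars (0.81, 0.93 and 0.71, adjusted p = 0.00215, 3e-05 and 0.000371). Nars and Tars were the 2 called with triacsin C alone. Of 20 genes of the ATF6 and XBP1 branches of the unfolded protein response, 3 were called higher without inhibitor, 4 when triacsin C was present and 4 when etomoxir was, and the medians were 0.07, 0.13 and 0.22. None was called lower by edgeR, and in either direction 5, 4 and 7 had an unadjusted p under 0.05 and 3, 4 and 6 were called by DESeq2. Over all genes tested, the shares called higher were 4.75%, 17.3% and 12.5%, so with triacsin C 4 of 20 is near the share of all genes. Those called higher included the chaperone gene Hspa5 (1.16, 0.96 and 1.06, edgeR adjusted p = 0.0016, 0.000206 and 0.000202) and Herpud1 (0.69, 0.67 and 0.73, adjusted p = 0.00666, 0.000359 and 0.000371). Partner factors of the bZIP class were higher for 4, 5 and 7 of 10, with medians of 0.89, 0.68 and 0.96. Fos was among them (2.96, 1.77 and 2.01, edgeR adjusted p = 0.000117, 0.000101 and 9.35e-05), and Cebpa was lower with triacsin C (-1.01, adjusted p = 0.0147).

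Upstream of ATF4, the 17 genes of the eIF2 kinases and the eIF2 machinery gave 0 called higher and 1 lower without inhibitor, 2 and 3 with triacsin C and 0 and 2 with etomoxir, with medians of 0.09, 0.04 and -0.05. With either inhibitor the shares called higher and lower lay below those of all genes tested. In either direction 3, 7 and 4 of them had an unadjusted p under 0.05 in edgeR and 2, 5 and 3 were called by DESeq2. Oma1, the mitochondrial protease that relays mitochondrial stress to the eIF2 kinase HRI, was lower in all 3 comparisons (-1.06, -0.89 and -1.18, edgeR adjusted p = 0.00553, 0.000914 and 0.0002). Eif2ak3, the kinase PERK, was higher with triacsin C (0.40, edgeR adjusted p = 0.0198), and Eif2ak1, the kinase HRI, was lower with etomoxir (-0.39, adjusted p = 0.0239) and with triacsin C alone against vehicle (-0.44, adjusted p = 0.0392). Of 8 mitochondrial chaperones and proteases, 0 were called by edgeR without inhibitor and 0 with etomoxir, with 0 and 1 at an unadjusted p under 0.05 and 0 and 0 by DESeq2. With triacsin C 1 of these, Dnaja3, was lower (-0.45, edgeR adjusted p = 0.0359), a share below the 19.7% of all genes tested that were called lower there. The medians of this list were -0.04, -0.01 and 0.02.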

How the data were processed

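The values were the counts per gene as deposited by the authors, who aligned reads to mm9 with STAR 2.4.2a, kept 1 read per position and read length with HOMER and counted reads over RefSeq genes with iRNA-seq. Keeping 1 read per position can cap short abundant genes, and Ddit3 reached 20.2 counts per base of counted length. Whether the authors' counting used strand is not stated, and 3 members overlap another gene.

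Of 20295 genes, 12786 passed filterByExpr, 18777 had at least 1 count and 11256 had at least 10 counts in every sample. One edgeR model with the 6 groups was fitted to the counts after TMM normalization, and quasi-likelihood F-tests were adjusted over the 12786 genes by Benjamini and Hochberg. The SE is the log2 fold change divided by the square root of F. The tools were R 4.3.3, edgeR 4.0.16, limma 3.58.1, DESeq2 1.42.0, Python 3.11.15, pandas 2.3.3 and matplotlib 3.10.9.

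The members and the 6 pathway and 5 marker lists were chosen with earlier results of these data known. For members, values in every sample were given for Atf4, Ddit3 and Trib3, for the 2 members per role with the largest absolute log2 fold change for SR-3420 against vehicle, and for up to 5 members with the smallest adjusted p in each test of a difference. Genes of other lists were named from the 4 smallest p-values per comparison or to say which were called. The symbols Gcn1, Dele1 and Adgre1 were found under the older symbols Gcn1l1, 0610009O20Rik and Emr1, from RefSeq synonyms.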

Additional observations from a re-analysis of the deposited data

Results flagged for a closer look

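The response of Atf3 to SR-3420 differed between settings by the test of the difference itself. It was lower with triacsin C than without inhibitor, by -1.45 on the log2 scale (SE 0.22, edgeR adjusted p = 0.00494), and lower with triacsin C than with etomoxir, by -1.15 (SE 0.19, edgeR adjusted p = 0.0079). Both calls were kept under every alternative run.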

How the results depend on the processing

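Each comparison was recomputed with DESeq2 size factors, with DESeq2's Wald test, with no filter on low counts, with at least 10 counts in every sample, with only the groups compared, with a replicate block, with an absolute log2 fold change of at least 1 for a call, and without each replicate in turn. No log2 fold change of a called member changed sign, and 55 of 95 calls were kept under every alternative other than the absolute log2 fold change of at least 1. In the fit of only the groups compared, 5 members were called for SR-3420 against vehicle and 1 for triacsin C and SR-3420 together against SR-3420 alone. At an absolute log2 fold change of at least 1, the counts were 17 for SR-3420 with triacsin C, 16 with etomoxir, 3 for triacsin C against vehicle and 2 for triacsin C plus SR-3420 against SR-3420 alone. By DESeq2 the counts were 2 for etomoxir against vehicle, 16 for triacsin C plus SR-3420 against SR-3420 alone, and 2 and 5 for the differences of triacsin C from no inhibitor and from etomoxir. With the replicate number as a replicate block, the counts were 21 for triacsin C against vehicle, 20 for triacsin C plus SR-3420 against SR-3420 alone, 5 for etomoxir with SR-3420 against SR-3420, and 3 and 5 for the differences of triacsin C from no inhibitor and from etomoxir. For SR-3420 this fit added Nupr1, Phgdh, Psat1, Pycr1, Slc6a9 and Slc38a2 as higher and Cbs as lower without inhibitor. With triacsin C it added Cebpg, Phgdh, Asns, Pycr1 and Cth as higher and Atf5 as lower. With etomoxir it added Phgdh and Pycr1 as higher and Slc1a5 as lower. Atf5 was also called higher for triacsin C against vehicle, and lower in the difference of triacsin C from no inhibitor (edgeR adjusted p = 0.00348 and 0.0308). Samples of different groups with the same number correlated at -0.286 to 0.827 over 35 pairs (mean 0.41, 27 pairs over 0.1) and those with different numbers had a mean of -0.203 over 71 pairs. The values correlated were deviations from each group's mean, which cancel within a group. A negative mean for different numbers is therefore partly built in, and the pairs are not separate observations. Of the 16 samples 10 correlated best with their own number, a hint from the data and not the design. Since some same-number pairs were not over 0.1, the numbers were not taken as pairs. Each of those pairs held triacsin C replicate 1 or replicate 2 of etomoxir with SR-3420. The main model has no replicate term, so any difference shared by a replicate number stays in its spread. Without each replicate in turn, the counts ran from 10 to 15 for SR-3420 against vehicle, from 3 to 6 for triacsin C against vehicle, from 1 to 6 for triacsin C plus SR-3420 against SR-3420 alone and from 1 to 2 for triacsin C minus etomoxir. Where this left a group with 1 sample, that sample was assumed to vary like the other groups. The cause of these changes was not tested. The vehicle and SR-3420 groups had 2 samples each, 1 time and 1 dose of each compound were measured, and RNA levels do not show ATF4 protein, eIF2 phosphorylation or translation.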
